A study of Mus musculus with 18 samples.

Results

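Expression of 10 genes of the dystrophin-glycoprotein complex was examined in mouse C2C12 myotubes that received a short hairpin RNA (shRNA) against Nup210, an shRNA against Mef2c or a scrambled control. The genes were Lama2, Dag1, Sgca, Sgcb, Sgcd, Sspn, Dmd, Utrn, Dtna and Dysf, chosen by name out of 22180 genes measured. A probe set was taken where its only gene symbol was one of these names, and 12 probe sets qualified. Dysf and Sspn had a second, dimmer probe set, and for each gene the brightest probe set by its mean over the 18 arrays was used. All 10 means lay above 5.47 on the log2 scale, a guide to background set at the 95th percentile of 1396 genes of olfactory and vomeronasal receptors, which are little expressed outside sensory tissue.

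The 18 single-colour arrays fell into 3 groups of 6: Nup210 shRNA, Mef2c shRNA and control scramble shRNA. Nup210 encodes a membrane protein of the nuclear pore, and Mef2c a transcription factor of the muscle programme. Myoblasts of this mouse line were kept in 20% fetal bovine serum, switched to 2% horse serum to make them differentiate, given the lentivirus after 36 h and collected 48 h after infection, and the control cells also carried a lentivirus and a hairpin. Every group therefore describes the same cell line in culture, with no wild-type tissue, nerve or uninfected cells for comparison. The labels do not state whether each array had a culture of its own, and the spread that the p-values rest on may therefore be technical. In whole-culture RNA, fewer cells of a type and less RNA per cell cannot be told apart.

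The dystrophin-glycoprotein complex spans the plasma membrane of the muscle fibre and ties the cytoskeleton to the basement membrane around the fibre. On the outside, alpha-dystroglycan binds laminin through sugar chains. Within the membrane, beta-dystroglycan, the sarcoglycans and sarcospan form a core, and on the inside dystrophin links beta-dystroglycan to actin, with dystrobrevin beside it. Loss of these proteins underlies several muscular dystrophies in people. Dysferlin belongs to membrane repair and is counted here among the members although it is not a subunit.

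Promoter windows of the members were read from RefSeq's mouse assembly GRCm38.p6, which held 13 transcription starts for 9 of the 10 genes. Each window covers the 250 bases before a start, and 3 motifs were searched on both strands: the E-box (CANNTG) that myogenic helix-loop-helix factors bind, the MEF2 site and the CArG box of serum response factor. Shown are Sgcd and Dag1, whose levels were lower under both shRNAs, Lama2, whose level was higher under both, and Dmd, the only member with a MEF2 site. The lines run 5′ to 3′ on the gene's own strand, and capitals mark the motif matches.

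Sgcd, chr11:47379326-47379575, minus strand: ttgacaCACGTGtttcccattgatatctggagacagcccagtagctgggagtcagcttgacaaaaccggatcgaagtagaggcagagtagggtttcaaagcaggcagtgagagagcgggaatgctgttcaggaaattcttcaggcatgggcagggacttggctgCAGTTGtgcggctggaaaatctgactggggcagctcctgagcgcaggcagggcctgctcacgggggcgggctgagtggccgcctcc

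Dag1, chr9:108263959-108264208, minus strand: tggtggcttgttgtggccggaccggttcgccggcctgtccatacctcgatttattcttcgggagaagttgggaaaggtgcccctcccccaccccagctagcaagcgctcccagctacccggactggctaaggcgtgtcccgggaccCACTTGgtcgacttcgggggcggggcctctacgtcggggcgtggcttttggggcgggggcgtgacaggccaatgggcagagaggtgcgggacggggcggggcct

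Lama2, chr10:27616943-27617192, minus strand: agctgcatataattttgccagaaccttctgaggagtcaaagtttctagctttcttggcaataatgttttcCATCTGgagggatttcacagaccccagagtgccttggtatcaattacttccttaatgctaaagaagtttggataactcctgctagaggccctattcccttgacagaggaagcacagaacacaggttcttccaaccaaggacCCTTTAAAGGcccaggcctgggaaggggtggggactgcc

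Dmd, chrX:82948620-82948869, plus strand: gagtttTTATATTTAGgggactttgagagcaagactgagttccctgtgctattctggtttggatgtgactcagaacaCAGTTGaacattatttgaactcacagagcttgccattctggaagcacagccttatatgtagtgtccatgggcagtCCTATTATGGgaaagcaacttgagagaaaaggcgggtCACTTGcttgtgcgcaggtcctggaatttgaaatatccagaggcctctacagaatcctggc

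Both capital runs of Sgcd and the single run of Dag1 are E-boxes. Lama2 has an E-box followed by a CArG box, and Dmd has, in order, the MEF2 site, an E-box, the CArG box and a second E-box. No match overlapped another in these 4 windows. An E-box was present for 7 of the 9 members, against 69.3% of 27025 genes in the table, so the members' share is close to that of all genes. The MEF2 site was found for 1 member (Dmd) and 3.42% of all genes, and the CArG box for 2 members (Dmd and Lama2) and 1.62% of all genes. A match is a description of the letters in these windows and no evidence of binding.

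Array medians over the genes ran from 5.901 to 6.001 log2 units, arrays of a group correlated at 0.991 to 0.995 across genes, and the typical standard error (SE) of a difference between groups was 0.0799. The number of arrays limits the precision. Mef2c averaged 7.91 ± 0.21 (SD, n = 6) in the Mef2c shRNA arrays and 10.39 ± 0.16 in controls, or 17.9% of control (exact two-sided permutation p = 0.002165, the smallest that the 924 splits allow). With Nup210 shRNA, Nup210 itself averaged 5.65 ± 0.11, against 5.75 ± 0.09 for control shRNA, near the background guide, and this difference did not exceed the spread between arrays (exact two-sided permutation p = 0.0801). Against the Mef2c shRNA arrays Nup210 was lower with Nup210 shRNA, at 85.0% (log2 difference -0.23, limma adjusted p = 0.0178), with 5 of 6 arrays below every Mef2c shRNA array. The Mef2c shRNA arrays themselves stood at 109.5% of control for Nup210 (log2 difference 0.13, limma adjusted p = 0.232), all 6 above the control mean. The difference between the shRNA groups is therefore no measure of Nup210 knockdown alone. The Nup210 shRNA arrays are called by their label, since the mRNA did not separate them from control.

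Lama2, the laminin alpha 2 chain of the muscle basement membrane and the ligand of dystroglycan, was higher under both shRNAs. Its probe set (17239919) had a lowest, median and highest value of 8.87, 9.06 and 9.20 log2 units in Nup210 shRNA arrays, 8.83, 8.96 and 9.04 in Mef2c shRNA arrays, and 8.52, 8.67 and 8.88 in control arrays. Here and for the other members, 3 values per group are the lowest, the median and the highest of its 6 arrays. In each shRNA group 5 of 6 arrays exceeded the highest control array and all 6 exceeded the control mean. Against control, the level was 127% (95% interval 115% to 141%) with Nup210 shRNA, a log2 difference of 0.35 ± 0.068 (SE, limma adjusted p = 0.00275). That call ended when Nup210 shRNA arrays 2, 4 and 5 were left out (0.29, adjusted p = 0.0845). With Mef2c shRNA it was 119% of control (108% to 131%), a log2 difference of 0.25 ± 0.068 (adjusted p = 0.0225). Nup210 and Mef2c shRNA arrays overlapped, and their difference of 0.10 did not pass the test (adjusted p = 0.42, interval -0.04 to 0.24). The call for Mef2c shRNA ended when array 4 (adjusted p = 0.0529) or 6 (0.0509) of that group or array 1 (0.0519) or 5 (0.052) of the controls was left out, with each array centred on its median (0.054) and in an unequal-variance test (0.0567).

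Dag1, which encodes the dystroglycan precursor that is cleaved into the alpha and beta subunits, separated all 3 groups with no overlap. Its values (probe set 17531168) were 11.60, 11.69 and 11.81 in Nup210 shRNA arrays (lowest, median, highest), 11.33, 11.39 and 11.48 in Mef2c shRNA arrays, and 11.88, 11.94 and 12.03 in controls. Every Mef2c shRNA array lay below every Nup210 shRNA array, and every Nup210 shRNA array below every control. Dag1 fell to 68.7% of control (64.5% to 73.1%) with Mef2c shRNA, a log2 change of -0.54 ± 0.043 (adjusted p = 3.4e-07). With Nup210 shRNA it fell to 84.7% of control (79.5% to 90.1%), a log2 change of -0.24 ± 0.043 (adjusted p = 0.0014). The direct comparison put the Nup210 shRNA arrays at 123% of the Mef2c shRNA arrays (116% to 131%, adjusted p = 6.78e-05). The call against control with Nup210 shRNA did not hold without Nup210 shRNA arrays 2, 4 and 5, which had the lowest array weights (log2 change -0.18, adjusted p = 0.064).

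**Figure D1:**
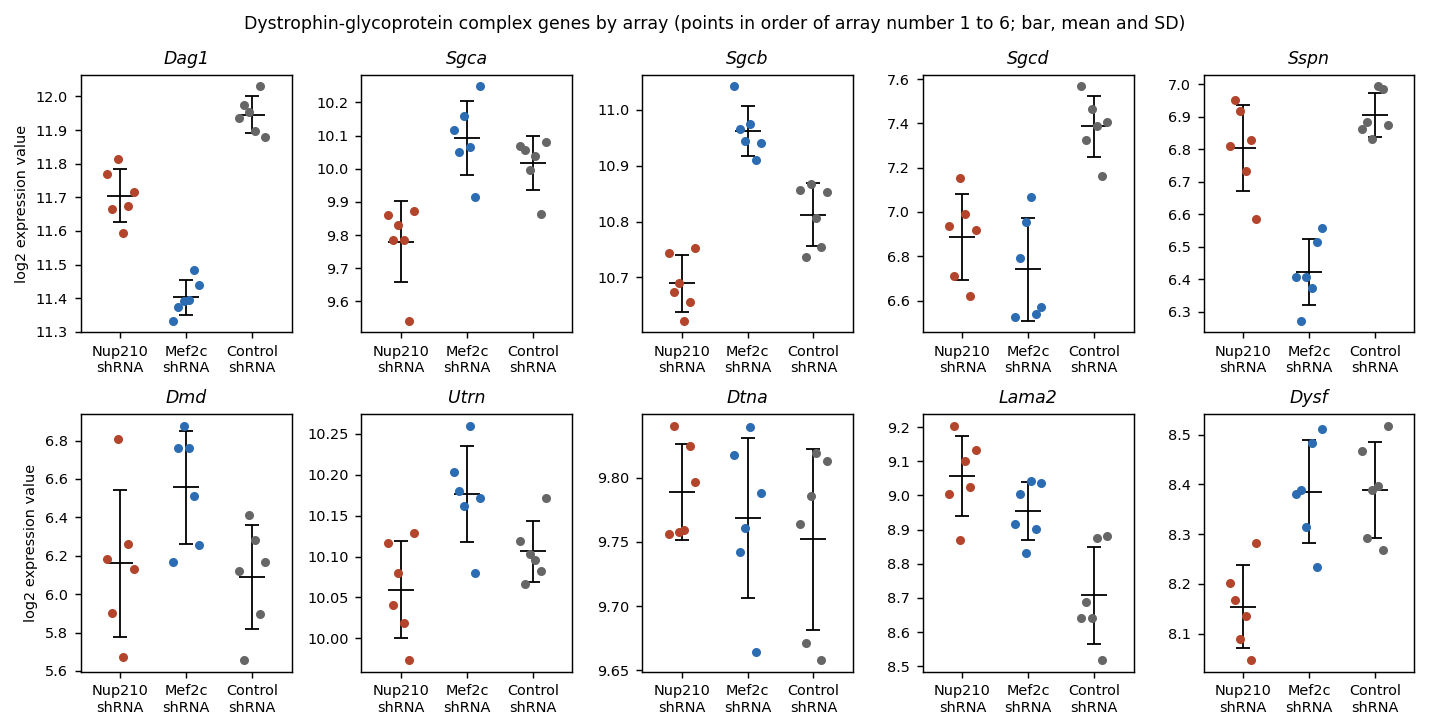
Log2 expression value (vertical axes, each with its own scale) of the 10 genes in the 6 Nup210 shRNA, 6 Mef2c shRNA and 6 control arrays, 1 point per array with the group mean and SD as bars. For Dag1 the Mef2c shRNA arrays reach at most 11.48, the Nup210 shRNA arrays lie between 11.60 and 11.81, and the controls start at 11.88, whereas the 3 groups of Dtna lie over each other.

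The sarcoglycans are single-pass membrane proteins that assemble with each other and stabilise dystroglycan, and the 3 among the members differed in which comparisons they were called. Sgcd, delta-sarcoglycan, was lower under both shRNAs. Its probe set (17262156) read 6.62, 6.93 and 7.15 in Nup210 shRNA arrays, 6.53, 6.68 and 7.07 in Mef2c shRNA arrays, and 7.16, 7.40 and 7.57 in controls (lowest, median, highest). Neither shRNA group overlapped the controls, although the highest Nup210 shRNA array lay just below the lowest control, and the shRNA groups overlapped each other. Sgcd stood at 70.8% of control (60.8% to 82.5%) with Nup210 shRNA, a log2 change of -0.50 ± 0.105 (adjusted p = 0.00504). It stood at 64.0% of control (54.9% to 74.5%) with Mef2c shRNA, a log2 change of -0.64 ± 0.105 (adjusted p = 0.000441). Between the shRNA groups the difference of 0.15 did not pass (adjusted p = 0.46, interval -0.07 to 0.37). Without Nup210 shRNA arrays 2, 4 and 5 the Nup210 shRNA call was lost (-0.38, adjusted p = 0.124).

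Sgca, alpha-sarcoglycan, was lower with Nup210 shRNA than in either other group. Values of its probe set (17268107) were 9.54, 9.81 and 9.87 in Nup210 shRNA arrays, 9.91, 10.09 and 10.25 in Mef2c shRNA arrays, and 9.86, 10.05 and 10.08 in controls. Array 5 of the Nup210 shRNA group, at 9.54, stood apart from the other 5, which started at 9.785. No Nup210 shRNA array reached the Mef2c shRNA range, and 1 of the 6 lay inside the control range. Against control the level was 84.9% (77.5% to 93.0%), a log2 change of -0.24 ± 0.063 (adjusted p = 0.024), and against Mef2c shRNA it was 80.5% (73.5% to 88.2%, adjusted p = 0.00173). With Mef2c shRNA it was 105% of control (96.2% to 115%), which did not pass (adjusted p = 0.528). The call against control ended when array 5 of the Nup210 shRNA group was left out (adjusted p = 0.0521), or control array 1 (0.0535), 2 (0.0507) or 6 (0.0555), or Nup210 shRNA arrays 2, 4 and 5 together (0.28), or control arrays 4 and 6 together (0.118). It ended also in an unequal-variance test (0.0557) and in a fit over all 41345 probe sets, added after seeing the data (0.0515).

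Sgcb, beta-sarcoglycan, was higher with Mef2c shRNA than in every array of the other groups. It read 10.62, 10.68 and 10.75 in Nup210 shRNA arrays (probe set 17448840), 10.91, 10.95 and 11.04 in Mef2c shRNA arrays, and 10.74, 10.83 and 10.87 in controls. With Mef2c shRNA the level was 111% of control (105% to 117%), a log2 change of 0.15 ± 0.038 (adjusted p = 0.0147), a call lost with each array centred on its median (0.0779). With Nup210 shRNA all 6 arrays lay below the control mean and 4 of 6 below every control, at 91.9% of control (86.9% to 97.1%), but the adjusted p of 0.0574 missed the threshold. Leaving out Nup210 shRNA array 6 (0.0472) or control array 2 (0.0453) took it past, as did leaving out dim genes (0.021), a trended robust prior (0.00994) and an unequal-variance test (0.0479). The adjusted p rose instead without Nup210 shRNA arrays 2, 4 and 5 (0.451, log2 change -0.08) and without control arrays 4 and 6 (0.19). It also rose in the fit over all probe sets (0.12). The direct comparison placed Nup210 shRNA at 82.8% of Mef2c shRNA (78.3% to 87.5%, adjusted p = 6.1e-05).

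Sspn, sarcospan, the small multi-pass membrane protein that binds the sarcoglycans, was lower with Mef2c shRNA. Its brighter probe set (17464282) gave 6.59, 6.82 and 6.95 in Nup210 shRNA arrays, 6.27, 6.41 and 6.56 in Mef2c shRNA arrays, and 6.83, 6.88 and 6.99 in controls. All 6 Mef2c shRNA arrays lay below both other groups, while the Nup210 shRNA and control arrays overlapped. Sspn fell to 71.5% of control (65.4% to 78.2%) with Mef2c shRNA, a log2 change of -0.48 ± 0.061 (adjusted p = 4e-05), and stood at 130% of the Mef2c shRNA level (119% to 143%) with Nup210 shRNA (adjusted p = 0.000224). Against control, Nup210 shRNA gave 93.2% (85.3% to 102%), which did not pass (adjusted p = 0.394). The dimmer probe set (17472772, mean 5.69) gave -0.32 with Mef2c shRNA (adjusted p = 0.0358 over all probe sets) and -0.13 with Nup210 shRNA (0.554), the same signs as the brighter one. Between Nup210 and Mef2c shRNA the dimmer probe set gave 0.19 without passing (adjusted p = 0.245 over all probe sets).

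**Figure D2:**
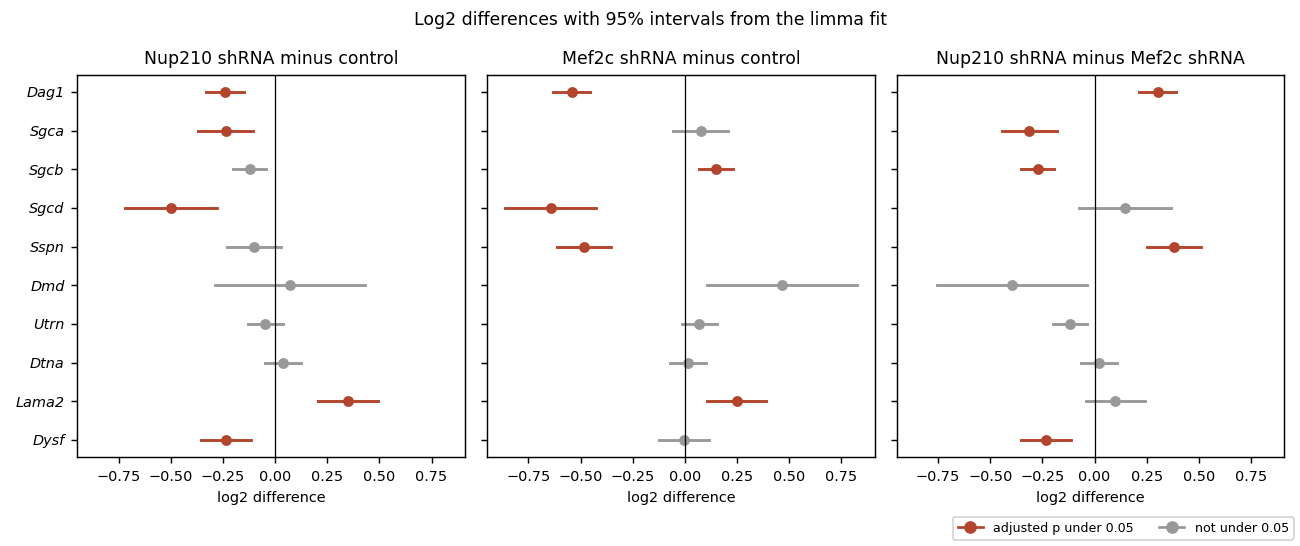
Log2 difference (horizontal axis) of each gene for Nup210 shRNA minus control, Mef2c shRNA minus control and Nup210 shRNA minus Mef2c shRNA, with 95% intervals from the limma fit and called genes in red. Sgcd lies at -0.50 and -0.64 and Dag1 at -0.24 and -0.54 against control, Lama2 lies to the right at 0.35 and 0.25, and Sgcb lies at -0.12 and 0.15.

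On the inner face, dystrophin, utrophin and dystrobrevin did not pass the test in any of the 3 comparisons. Dmd, dystrophin itself, varied most between arrays of a group. Its probe set (17536078) read 5.67, 6.16 and 6.81 in Nup210 shRNA arrays, 6.17, 6.64 and 6.88 in Mef2c shRNA arrays, and 5.66, 6.14 and 6.41 in controls. The groups overlapped, and in each of them the SD (0.38, 0.29 and 0.27 in that order) was the widest of the 10 genes. With Mef2c shRNA all 6 arrays lay above the control mean and 4 of 6 above every control, at 138% of control (108% to 177%), a log2 difference of 0.47 ± 0.17 (adjusted p = 0.0942). Leaving out Nup210 shRNA array 3 (0.0483) or dim genes (0.0495) took that difference past the threshold. That array is in neither group compared and enters only through the spread shared by all groups. Other single arrays left out raised the adjusted p to as much as 0.196, and leaving out control arrays 4 and 6 to 0.139. With Nup210 shRNA the level was 105% of control (81.9% to 135%, adjusted p = 0.877) and 76.0% of Mef2c shRNA (59.2% to 97.5%, adjusted p = 0.154), the second called without Nup210 shRNA array 3 (0.028). With other single arrays left out the adjusted p of the second rose to as much as 0.308, and without Nup210 shRNA arrays 2, 4 and 5 to 0.683.

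Utrn, utrophin, the dystrophin relative that can take its place at the membrane, had narrow spreads. It read 9.97, 10.06 and 10.13 in Nup210 shRNA arrays (probe set 17239268), 10.08, 10.18 and 10.26 in Mef2c shRNA arrays, and 10.07, 10.10 and 10.17 in controls. The groups overlapped, with levels of 96.8% of control (91.5% to 102%, adjusted p = 0.567) for Nup210 shRNA and 105% (99.2% to 111%, adjusted p = 0.31) for Mef2c shRNA. Nup210 shRNA stood at 92.2% of Mef2c shRNA (87.1% to 97.6%), just short of the threshold (adjusted p = 0.0543). That difference passed without Nup210 shRNA array 6 (0.0429), without Mef2c shRNA array 5 (0.0258), after renewed quantile normalization (0.0374), with dim genes left out (0.0209) and with a trended robust prior (0.0146). With other single arrays left out the adjusted p rose to as much as 0.13. Without Nup210 shRNA arrays 2, 4 and 5 the log2 difference shrank from -0.12 to -0.07 (adjusted p = 0.44).

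Dtna, alpha-dystrobrevin, the scaffold that binds dystrophin and the syntrophins, was level across groups within narrow limits. It read 9.76, 9.78 and 9.84 in Nup210 shRNA arrays (probe set 17348902), 9.66, 9.77 and 9.84 in Mef2c shRNA arrays, and 9.66, 9.78 and 9.82 in controls. All ranges overlapped. The level was 103% of control with Nup210 shRNA (96.7% to 109%, adjusted p = 0.687) and 101% with Mef2c shRNA (95.3% to 107%, adjusted p = 0.868).

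Dysf, dysferlin, which brings vesicles to a torn membrane, was lower with Nup210 shRNA on its brighter probe set. That probe set (17460185) read 8.05, 8.15 and 8.28 in Nup210 shRNA arrays, 8.23, 8.38 and 8.51 in Mef2c shRNA arrays, and 8.27, 8.39 and 8.52 in controls. In the Nup210 shRNA group 5 of 6 arrays lay below every control and below every Mef2c shRNA array, while the Mef2c shRNA and control ranges overlapped widely. The level was 85.0% of control (78.2% to 92.4%), a log2 change of -0.23 ± 0.057 (adjusted p = 0.014), and 85.2% of Mef2c shRNA (78.4% to 92.6%, adjusted p = 0.00897). With Mef2c shRNA it was 99.8% of control (91.8% to 108%, adjusted p = 0.981). The dimmer probe set (17468277, mean 6.43) went the other way without passing (0.15 with Nup210 shRNA, adjusted p = 0.317 over all probe sets), and with the mean of both probe sets the Nup210 shRNA call was lost (-0.04, adjusted p = 0.612). The call was also lost without control arrays 4 and 6, a set chosen from earlier results (0.0895), and without Nup210 shRNA arrays 2, 4 and 5 (0.204). Between Nup210 and Mef2c shRNA the dimmer probe set gave -0.04 (adjusted p = 0.867), and the call of the brighter one was lost without Nup210 shRNA arrays 2, 4 and 5 (-0.19, adjusted p = 0.116).

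Counted together, 5 of the 10 genes were called at an adjusted p under 0.05 in each of the 3 comparisons. The members were chosen with earlier results of these data known, so their counts beside those of all genes are a description and no test. With Nup210 shRNA against control, Lama2 was higher and Sgcd, Dag1, Sgca and Dysf were lower, in a comparison in which 8.16% of all genes were called (3.05% higher and 5.11% lower). The median log2 change of the 10 genes was -0.11, beside 0.02 for all genes. With Mef2c shRNA against control, Lama2 and Sgcb were higher and Dag1, Sgcd and Sspn lower, where 10.8% of all genes were called (4.34% higher and 6.42% lower), and the median was 0.04 beside 0.02 for all genes. Both comparisons use the same control arrays. Between Nup210 and Mef2c shRNA, Dag1 and Sspn were higher and Sgca, Sgcb and Dysf lower, where 14% of all genes were called (7.1% higher and 6.93% lower), and the median was -0.05 beside -0.00 for all genes. Ranges of the arrays did not overlap for 2 members with Nup210 shRNA against control (Sgcd and Dag1; 5.63% of all genes) and for 4 with Mef2c shRNA against control (Sgcb, Sgcd, Sspn and Dag1; 7.74%). The same held for 4 between the shRNA groups (Sgca, Sgcb, Sspn and Dag1, against 8.62% of all genes). All 10 members lay above the background guide, whereas these shares of all genes include dim ones. With dim genes left out, 2362, 3018 and 3632 of 13019 genes were called in the 3 comparisons, and 6 members in each.

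The count for Nup210 shRNA ran from 4 to 6 with single arrays left out and fell when sets of arrays were left out. Leaving out a set also makes a group smaller, and the SE of Lama2 rose from 0.068 to 0.084 without Nup210 shRNA arrays 2, 4 and 5. Other sets of that size were not tried, so which arrays went and how many went cannot be told apart. Without Nup210 shRNA arrays 2, 4 and 5 limma called 0 of the 10 genes, and 563 genes in all. The same 5 genes had an unadjusted p under 0.05 there, with adjusted p-values from 0.064 for Dag1 to 0.28 for Sgca. Without control arrays 4 and 6 there were 3 calls. For Mef2c shRNA, 5 members were called without control arrays 4 and 6, and 3 with each array centred on its median, where Sgcb and Lama2 were lost. Among all genes 676 were higher and 1133 lower with Nup210 shRNA, so that 62.6% of calls were lower, and with median centring 395 were higher and 1177 lower, or 74.9%. With Mef2c shRNA 963 were higher and 1423 lower, or 59.6%, and with median centring 625 and 1428, or 69.6%.

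Within groups, some arrays were extreme for several members at once. Array 5 had the lowest value of its group for 4 members with Nup210 shRNA (Sgca, Sgcd, Utrn and Dysf), for 5 with Mef2c shRNA (Sgca, Sgcb, Dtna, Utrn and Dysf) and for 5 in controls (Sgca, Sgcd, Dtna, Lama2 and Dysf). Array 6 had the highest value for 4, 3 and 4 members in the same order of groups, among them Sgca and Dysf each time. In the labels, same-numbered arrays are tied by the number in the titles only, and what it stands for is not said. Across all genes 12 of 18 arrays correlated best with their own number, with same-numbered deviations correlating at -0.178 to 0.223. The main fit takes no account of the number, and whether it marks a shared culture or batch was not tested.

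**Figure D3:**
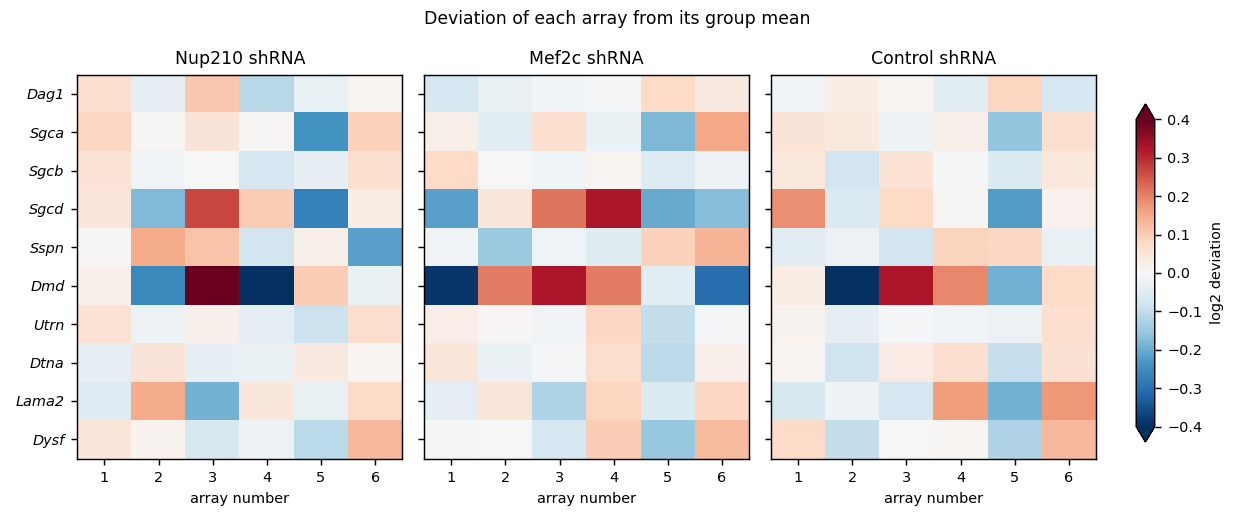
Deviation of each array (horizontal axis, array number in the titles) from its group mean on the log2 scale, for the 10 genes in the 3 groups, with blue for lower and red for higher, and colours ending at 0.4 in either direction. The column of array 5 is blue for Sgca and Dysf in all 3 groups, and the row of Dmd holds the strongest colours.

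Genes around the complex were read from 5 lists, given as counts of called genes. These lists were also chosen with earlier results of these data known. In the order below, 6 of 9, 13 of 14, 12 of 15, 21 of 21 and 24 of 24 measured genes lay above the background guide. The shares of all genes set beside them include dim genes and are therefore not like for like. Among the 13019 genes above the guide, fitted alone, 2362 were called with Nup210 shRNA and 3018 with Mef2c shRNA. Other subunits and partners inside the cell had 9 of 11 genes measured, of which 2 were lower with Nup210 shRNA, where 5.11% of all genes were lower. These were Nos1, the neuronal nitric oxide synthase that sits on dystrophin through syntrophin (-0.56, adjusted p = 0.00834), and Sntb2, a beta-syntrophin (-0.28, adjusted p = 0.0226, or 0.0574 without Nup210 shRNA array 4). With Mef2c shRNA limma called 0 of the 9, as did the unequal-variance test, and 1 (Sntb2) had an unadjusted p under 0.05. With the mean level of 6.29 in Nup210 shRNA and 6.85 in control arrays, Nos1 lay not far above the background guide. Of the further sarcoglycans, Sgce (-0.11, adjusted p = 0.262, and 0.03, adjusted p = 0.829, with Nup210 and Mef2c shRNA) was not called, and Sgcz lay below the guide with a mean of 4.87.

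For the enzymes that build the laminin-binding sugar of dystroglycan, 1 gene was called against control with each shRNA. This is 7.14% of the list, below the 8.16% and 10.8% of all genes called with Nup210 and Mef2c shRNA. Of 18 listed, 14 were measured, with list medians of 0.02 for Nup210 shRNA and 0.03 for Mef2c shRNA. Pomt2, which adds the first mannose, was called higher with Nup210 shRNA (0.16, adjusted p = 0.0294), a call lost without any of 5 single arrays. B3galnt2, which adds a later sugar, was called lower with Mef2c shRNA (-0.14, adjusted p = 0.0336), lost without any of 8 single arrays.

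Laminin chains and other ligands had 15 of 16 genes measured, with 5 lower and 1 higher for Nup210 shRNA, or 40% of the list called beside 8.16% of all genes (5.11% lower and 3.05% higher). The largest falls were those of Lamb3, a laminin beta chain of epithelia (-0.55, adjusted p = 0.00528), Bgn, the proteoglycan biglycan (-0.29, adjusted p = 6.62e-05), and Lamb2, the beta chain of synaptic laminin (-0.285, adjusted p = 0.000319). Lama5 (-0.28) and Nid1 (-0.21) also fell and Lamb1 rose (0.16, adjusted p = 0.0349, lost without any of 8 single arrays), these 3 being named after their values were seen. With Mef2c shRNA, Lamb3 (-0.53, adjusted p = 0.00532), Nid1, a linker of the basement membrane (-0.32, adjusted p = 0.000563), and Lamb1 (-0.23) fell, and Slit2, a guidance protein that binds dystroglycan, rose (0.32, adjusted p = 2.12e-05), so that 26.7% of the list was called beside 10.8% of all genes. The 2 shRNA groups differed directly at Lamb1 (0.39, adjusted p = 1.13e-05), which was higher with Nup210 shRNA, and at Lamb2 (-0.33, adjusted p = 2.47e-05), which was lower. List medians were -0.04 and -0.01 against control. The shares of all genes include dim ones, whereas 12 of the 15 listed genes lay above the background guide. Among the 13019 genes above it, fitted alone, 2362 were called with Nup210 shRNA and 3018 with Mef2c shRNA.

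Costamere and integrin genes, which anchor the sarcomere to the membrane beside the dystrophin complex, had 21 of 23 members measured, all above the background guide. With each shRNA 23.8% of the list was called. Of all genes, dim ones included, 8.16% were called for Nup210 shRNA and 10.8% for Mef2c shRNA. These shares are not like for like. Among the 13019 genes above the guide, fitted alone, 2362 were called with Nup210 shRNA and 3018 with Mef2c shRNA. With Nup210 shRNA, Itga6, an integrin laminin receptor (-0.41, adjusted p = 0.00561), Plec, the linker plectin (-0.18, adjusted p = 0.00368), Vcl and Itga5 fell. Tln2, a talin, was called higher (0.15, adjusted p = 0.0457), a call lost without any of 15 single arrays, and that of Itga5 was lost without any of 7. With Mef2c shRNA 5 fell, led by Actn2, the Z-disc alpha-actinin (-0.67, adjusted p = 4.18e-06), Ank2, an ankyrin that helps to hold dystrophin at the membrane (-0.31, adjusted p = 0.000158), and Itga5, an integrin fibronectin receptor (-0.22, adjusted p = 0.00183). Fermt2 and Flnc also fell, and these 2, like Vcl and Itga5 for Nup210 shRNA, were named after their values were seen. Directly compared, Actn2 was higher with Nup210 than with Mef2c shRNA (0.50, adjusted p = 5.15e-05).

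Of 24 measured membrane repair genes and partners of dysferlin, 9 were lower with Nup210 shRNA (37.5%) and 4 with Mef2c shRNA (16.7%), and none was called higher. Of all genes, dim ones included, 5.11% and 6.42% were lower, whereas all 24 lay above the background guide. Among the 13019 genes above it, fitted alone, 1432 were lower with Nup210 shRNA and 1777 with Mef2c shRNA. Capn3, the muscle calpain, fell by 0.60 (adjusted p = 0.000454) and 0.51 (adjusted p = 0.0013) on the log2 scale with Nup210 and Mef2c shRNA. Myof, myoferlin, the relative of dysferlin in fusing myoblasts, fell by 0.45 with Nup210 shRNA (adjusted p = 1.55e-06) and differed directly between Nup210 and Mef2c shRNA (-0.51, adjusted p = 1.3e-07). Vps4b, an ATPase of membrane scission, fell by 0.27 with Nup210 shRNA (adjusted p = 0.000155). With Mef2c shRNA the other falls were Cav1, caveolin-1 (-0.28, adjusted p = 0.00862), Capn2, a calpain (-0.22, adjusted p = 0.00693), and Anxa6, an annexin named after its value was seen (-0.16). The list medians were -0.11 and -0.04.

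**Figure D4:**
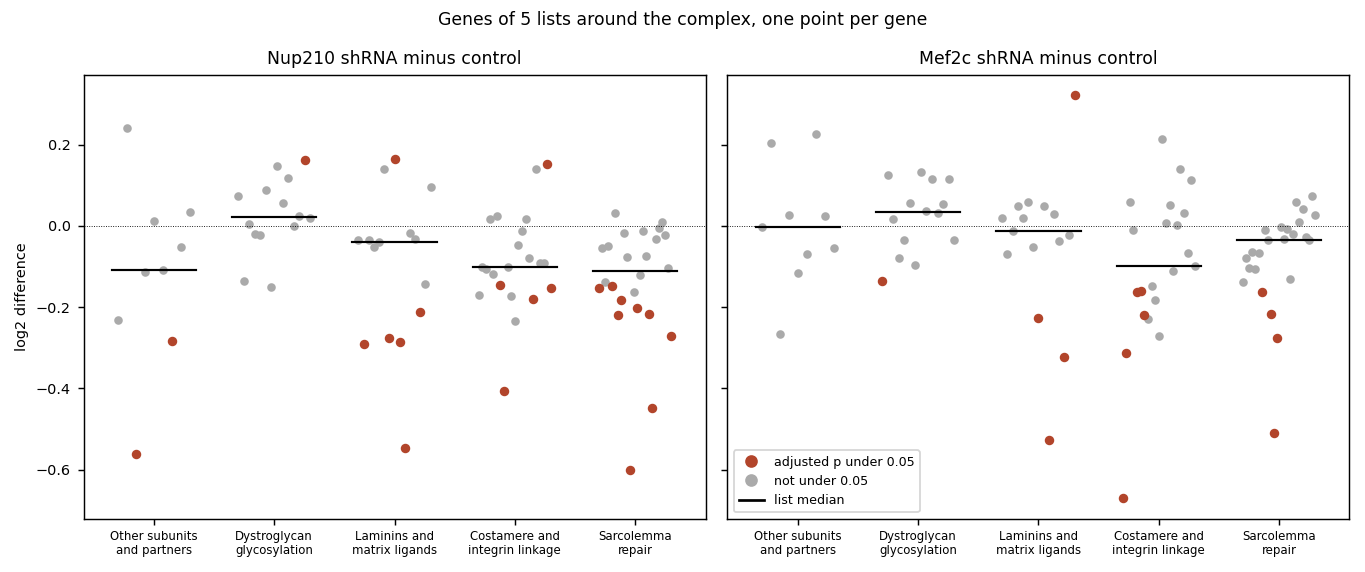
Log2 difference (vertical axis) of each measured gene of the 5 lists for Nup210 shRNA minus control and for Mef2c shRNA minus control, 1 point per gene, called genes in red, with the list median as a bar. Repair genes have 9 red points with Nup210 shRNA, all below 0, and 4 with Mef2c shRNA, and the glycosylation list sits around 0 in both panels.

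Of the 23 genes of these lists called with Nup210 shRNA, 8 were still called without Nup210 shRNA arrays 2, 4 and 5 and 13 without control arrays 4 and 6. By list, the counts without the 3 Nup210 shRNA arrays were 3 of 15 for laminins and ligands, 5 of 24 for repair genes and 0 in limma for the other 3 lists, where 2 other subunits, 1 glycosylation gene and 6 costamere genes had an unadjusted p under 0.05. Capn3 (adjusted p = 0.0147), Myof (0.000112), Vps4b (0.00343), Bgn (0.0018) and Lamb2 (0.00217) were among those that held, and Nos1 (0.093), Lamb3 (0.152), Itga6 (0.0722) and Plec (0.113) were lost. Of 14 called with Mef2c shRNA, 12 held without control arrays 4 and 6. The count of other subunits with Nup210 shRNA dropped to 1 without Nup210 shRNA array 4, and that with Mef2c shRNA rose to 1 without Mef2c shRNA array 3 or 6 or control array 5. The costamere count with Nup210 shRNA dropped to 3 when array 3 or 5 of that group, or 2, 4 or 6 of the controls, was left out, and that with Mef2c shRNA rose to 9 without Mef2c shRNA array 6.

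For each member called against control, the 3 genes most like it over the 18 arrays were taken, by the root mean square difference between mean-centred profiles among 13019 genes above the background guide. The profile of Sgca was closest to those of Stac3, an adaptor of excitation-contraction coupling (0.055 log2 units), Pcyt1a, an enzyme of phosphatidylcholine synthesis (0.0555), and the proteasome subunit Psmd8 (0.0576). Nearest to Dag1 were Sox8, a transcription factor (0.0636), Pcyox1, a prenylcysteine oxidase (0.0782), and Myh3, the embryonic myosin heavy chain (0.0839). Sgcd lay nearest to Nes, the intermediate filament nestin (0.156), Col6a3, a collagen VI chain (0.168), and Pkp1, plakophilin 1 (0.168).

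Around Dysf the closest were Anxa7, an annexin that also stands in the repair list (0.0561), Frmd4a (0.0606) and Myh8, the perinatal myosin heavy chain (0.0641). Sgcb had Wnk1, a kinase of ion transport (0.0419), Dcaf6 (0.0435) and Lgals3, galectin-3 (0.0488), and Sspn had Dpy19l4 (0.0931), Abhd17b (0.0963) and Gpkow (0.103). Lama2 was matched best by Marcks, a protein kinase C substrate (0.077), Ankrd52 (0.0801) and Vipas39 (0.0815). Among these members the nearest gene was farthest for Sgcd (0.156) and closest for Sgcb (0.0419). These distances describe the same arrays that gave the changes, so they carry no test.

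Markers of the cell types that the cultures could hold were read beside the complex. All 20 myotube markers lay above the background guide in controls, and their summed level ran from 15.87 to 15.97 log2 units in Nup210 shRNA arrays, 15.85 to 15.98 in Mef2c shRNA arrays and 15.95 to 16.03 in controls. With Mef2c shRNA, Myh2 lay below the guide at a mean of 5.32. Of these 20, Myh3 (-0.20), Ckm (-0.39) and Mymk (-0.14) were lower with Nup210 shRNA, and Myh3 (-0.39) and Acta1 (-0.16) with Mef2c shRNA. Between Nup210 and Mef2c shRNA, 3 were higher (Myog, Myh3 and Acta1) and 4 lower (Myh8, Myh1, Ckm and Mymk). In that comparison 14% of all genes were called, and 3632 of the 13019 genes above the guide, fitted alone. The calls of Myog, Myh8 and Acta1 ended without any of 7, 12 and 5 single arrays. The 11 markers of reserve cells and undifferentiated myoblasts summed to between 12.46 and 12.57 in Nup210 shRNA arrays, 12.45 and 12.57 in Mef2c shRNA arrays and 12.43 and 12.58 in controls. Myf5, a determination factor of myoblasts, was higher by 0.66 with Nup210 shRNA, with Sdc4 lower. With Mef2c shRNA, Myf5 (0.33) and Vcam1 were higher and Cdh15, Heyl and Hes1 lower, and Pax3 and Calcr lay at or below the background guide in all groups. Directly compared, Myf5, Cdh15, Heyl and Hes1 were higher and Sdc4 lower with Nup210 than with Mef2c shRNA.

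Fibroblast markers (8 measured) summed to between 12.42 and 12.60 in Nup210 shRNA arrays, 12.22 and 12.37 in Mef2c shRNA arrays and 12.25 and 12.42 in controls. Of these, Col3a1 (0.38) and Dcn (0.26) were higher with Nup210 shRNA, while Dcn was higher and Col1a1 and Col1a2 were lower with Mef2c shRNA. Directly compared, Col3a1 (0.48) and Col1a2 (0.15, lost without any of 7 single arrays) were higher with Nup210 than with Mef2c shRNA. Lum and Tcf21 lay at or below the background guide in every group. Smooth muscle markers had 3 of 6 lower with Nup210 shRNA (Cnn1, Tagln and Smtn, the call of Tagln ending without any of 7 single arrays) and 2 with Mef2c shRNA (Cnn1 and Tagln). Smtn was also lower with Nup210 than with Mef2c shRNA (-0.31). Of 6 adipocyte markers, Adipoq, Fabp4 and Cidec were at or below the background guide in every group, while Plin1, Pparg and Cebpa lay above it with means of 5.67, 7.08 and 6.63. Cebpa was higher with Mef2c shRNA than in controls (0.37, adjusted p = 0.00602) and lower with Nup210 than with Mef2c shRNA (-0.49, adjusted p = 0.000401). Of 4 nerve markers measured, Tubb3 was called lower with Nup210 shRNA (-0.62, adjusted p = 0.0244) and with Mef2c shRNA (-0.55, adjusted p = 0.0386). Leaving out any of 3 single arrays ended the first Tubb3 call and any of 7 the second, as did an unequal-variance test (0.0844 and 0.105). The part of these markers in the changes of the complex was not tested.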

How the data were processed

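Total RNA of 18 C2C12 samples was labelled with biotin and hybridised to single-colour arrays. The authors deposited a log2 value for each probe set and array, made with RMA and Partek per the submitters' processing notes. Not given in the sources used here were the tools' versions and settings, the genome build, and any scan date or batch. The RMA method subtracts background, makes the arrays alike in distribution and summarises the probes of a set, which shrinks differences between dim values. Values ran from 0.644 to 13.7 with none missing. The annotation supplied for the platform gave 23521 of 41345 probe sets a single gene symbol, 1814 several and 16010 none. RefSeq's gene table of GRCm38.p6 held 23328 of the named ones and changed 0 symbols. No coordinates of probe sets are given.

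All 22180 genes, each by its brightest probe set, were fitted in limma 3.58.1 (R 4.3.3) over the 18 arrays, with 1 mean per group, no covariate and 15 residual degrees of freedom. Adjusted p-values are Benjamini-Hochberg values over all genes, and a gene was called under 0.05. Percentages of control are 2 raised to the log2 difference. For Mef2c and Nup210 a two-sided exact permutation test was added. On simulated data for 22180 genes the Nup210 comparison recovered 35.8% of genes changed by 0.25 and 76.1% of those changed by 0.5, with 6.12% of calls false, and the Mef2c comparison 26.9% and 76.1%, with 8.16% false. Only 67 genes were changed by 0.25, 67 by 0.5 and 66 by 1, and the noise was normal and independent between genes. The data had more genes called and may hold shifts shared by genes of an array, so these shares need not carry over.

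The named genes were all members, the targeted genes, per list the 3 called genes with the largest change against control, and the 3 genes most like each called member. Members and lists were chosen with earlier results of these data known. Listed genes with no probe set named for them alone were not analysed here. The alternatives tried were a replicate block, other normalizations, probe set rules, priors, tests and thresholds, array weights, and leaving out arrays singly or in 2 groups chosen from earlier results; a fit over all probe sets was added after seeing the data.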

Additional observations from a re-analysis of the deposited data

Results flagged for a closer look

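A value far from the rest of its group by Dixon's criterion was found for 3 of 36 combinations of gene and group, covering the 10 members, Mef2c and Nup210, where chance gives about 1 in 20. Sgca was 9.54 in Nup210 shRNA array 5, and the other arrays of that group lay between 9.785 and 9.872. Mef2c was 7.51 in Mef2c shRNA array 5, and the others lay between 7.878 and 8.085. Nup210 was 5.57 in control array 6, and the other controls lay between 5.749 and 5.811.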

How the results depend on the processing

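Of 360 recomputed member differences under alternatives other than single arrays, 331 kept their direction and side of the threshold, 14 lost and 9 gained a call, and 6 turned their sign. With single arrays left out the numbers were 518, 8, 6 and 8 of 540. Every reversed value was of a difference near 0 that did not pass. For Nup210 shRNA against control, Utrn became 0.0019 without Nup210 shRNA arrays 2, 4 and 5, and Dmd ran from -0.0585 to 0.17 over single arrays left out. For Mef2c shRNA against control, Dysf became 0.0202 with renewed quantile normalization, 0.089 with the mean of all probe sets, 0.00196 with array weights and 0.0313 without control arrays 4 and 6, and ran from -0.0285 to 0.0268 over single arrays. Dtna became -0.00144 with median centring there and ran from -0.00202 to 0.0376 over single arrays, and between the shRNA groups it ran from -0.000366 to 0.0347.

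At an adjusted p under 0.01, genes called were 904 for Nup210 shRNA, 1302 for Mef2c shRNA and 1899 between the shRNA groups, with 3 members for each shRNA against control. Without Nup210 shRNA arrays 2, 4 and 5 the Nup210 counts were 563 genes and 0 members. Without control arrays 4 and 6 they were 1103 genes and 3 members, and Mef2c shRNA had 1420 genes. Median centring left 3 members for Mef2c shRNA. With single arrays left out, genes called ran from 1406 to 1853 for Nup210 shRNA, 1926 to 2489 for Mef2c shRNA and 2709 to 3043 between the shRNA groups, and members from 4 to 6, 4 to 6 and 5 to 6.

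Numbers in the titles were not taken to pair arrays, since the labels do not say what they stand for. Deviations of same-numbered arrays correlated at -0.178 to 0.223, above 0.1 for 6 of 18 pairs, and 12 of 18 arrays correlated best with their own number. Whether same-numbered arrays share a culture or batch was not tested. With the replicate block, 2221, 2862 and 3528 genes and 6, 5 and 6 members were called in the 3 comparisons, Sgcb (adjusted p = 0.0369) being gained for Nup210 shRNA against control and Utrn (0.0377) between the shRNA groups. The cause of these shifts was not tested.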
